A study of Rattus norvegicus with 10 samples.

Results

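The genes described here are the Fos, Jun and Egr family members Fos, Fosb, Fosl1, Fosl2, Jun, Junb, Jund, Egr1, Egr2 and Egr3. They are 10 of the 23487 genes in the count table, chosen by symbol with earlier results of these data known. All 10 were found, each under 1 gene ID, and all 10 passed the count filter in every comparison. They were measured by RNAseq in 10 libraries of primary Sprague-Dawley rat cells, 2 libraries in each of 5 groups. OPCs, the oligodendrocyte progenitor cells, were shaken off mixed glial cultures of neonatal cortex, and oligodendrocytes (OLs) were differentiated from them. The OLs had received a scrambled mimic (miR-ctl), the miR-145-5p mimic (miR-145), or the miR-145-5p and miR-219 mimics (miR-145+miR-219), and were assayed 5 days after transfection in differentiation medium. The OPCs had received a scrambled inhibitor (anti-miR-ctl) or the miR-145-5p inhibitor (anti-miR-145), and were assayed 24 h after transfection in medium with FGF2 and PDGFAA. All oligonucleotides were used at 30 nM. Agent, dose and timing are those of the labels. The results section of the study also names miR-145-5p mimics for the RNAseq. The RNAseq methods of the study name lentiviral overexpression instead, and the labels were followed. The treatment tag of both OL miR-145 libraries lists miR-219 as well, but title and description give only miR-145, which was followed here. The labels do not say whether the replicates came from separate cultures. The reporting summary of the study calls each N a biological replicate. For primary cultures it defines N by the individual mouse and does not name the rat cultures. The p-values measure the spread between these libraries, and how separate the rat cultures were is not given.

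Fos and Jun family proteins are leucine zipper factors that pair with each other to form the AP-1 transcription factor. Egr proteins are zinc finger factors that bind GC-rich DNA, and Egr2, also called Krox20, is best known as the regulator of myelination in Schwann cells. Most of these genes are immediate early genes, transcribed within minutes of a growth factor or stress signal from kinases such as ERK and JNK, often through serum response factor (SRF) bound at a CArG box and CREB bound at a cyclic AMP response element (CRE). Jund is the exception, with a steady basal level in most cells.

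The miR-145-5p mimic is, by the labels, identical to the mature miRNA. It is shown because its seed, bases 2 to 8 in capitals, is the part that pairs with targets. The sequence is from RefSeq (rat build GRCr8, chromosome 18, 57370033 to 57370055, minus strand). Sites of this seed in the transcripts of the 10 genes were not analysed here.
rno-miR-145-5p: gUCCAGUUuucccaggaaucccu

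RefSeq promoter windows, from 250 bases before to 50 bases after the gene start, matched 7 of the 10 genes. Fos, Jun and Egr3 had no entry. The stretches below are shown because Egr1 and Egr2 had the largest differences between OLs and OPCs among the 10 genes, and Jund differed with the inhibitor. They are written 5′ to 3′ on the gene's strand in GRCr8, with the first base of the gene as 1 and the base before it as -1. The Egr1 stretch is chr18:26736928-26737027 (plus strand, -150 to -51), the Egr2 stretch is chr20:21054492-21054591 (minus strand, -150 to -51), and the Jund stretch is chr16:18769832-18770001 (minus strand, -230 to -61). Capitals mark matches to the motifs searched on both strands.
Egr1: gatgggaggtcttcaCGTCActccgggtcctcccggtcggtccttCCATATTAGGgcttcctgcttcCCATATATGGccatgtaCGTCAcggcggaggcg
Egr2: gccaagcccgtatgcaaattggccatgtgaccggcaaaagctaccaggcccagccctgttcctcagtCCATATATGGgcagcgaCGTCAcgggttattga
Jund: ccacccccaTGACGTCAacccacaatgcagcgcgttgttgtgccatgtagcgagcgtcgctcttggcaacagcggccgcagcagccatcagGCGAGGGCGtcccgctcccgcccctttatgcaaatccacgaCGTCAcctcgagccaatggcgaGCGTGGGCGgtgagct

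The CArG box, the SRF motif, matched 2 of the 7 windows, those of Egr1 and Egr2. Egr1 held 2 matches, at -105 to -96 and at -83 to -74, and Egr2 held 1 match, also at -83 to -74. A CArG box was present in 1.64% of the 33465 windows of the same length, and 0.0209% held 2 or more. The CRE core (TGACG, which is part of the full CRE) matched 5 of the 7 windows, Fosl1, Junb, Jund, Egr1 and Egr2, against 21.2% of all windows. In Egr1 and in Egr2 a CRE core on the minus strand stood at -66 to -62. A CArG box and a CRE core occurred together in 0.272% of all windows. The full CRE (TGACGTCA) matched in Jund alone of the 7, at -221 to -214, against 1.83% of all windows. The EGR motif (GCGNGGGCG) matched 3 times in Jund and 2 times in Fosl2, and it was present in 4.98% of all windows. The AP-1 motif (TGANTCA) matched none of the 7 windows and 7.33% of all windows. TATAAA matched in Fosb and Junb, against 14.2% of all windows. A match is a run of letters and was not tested for binding.

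**Figure D1:**
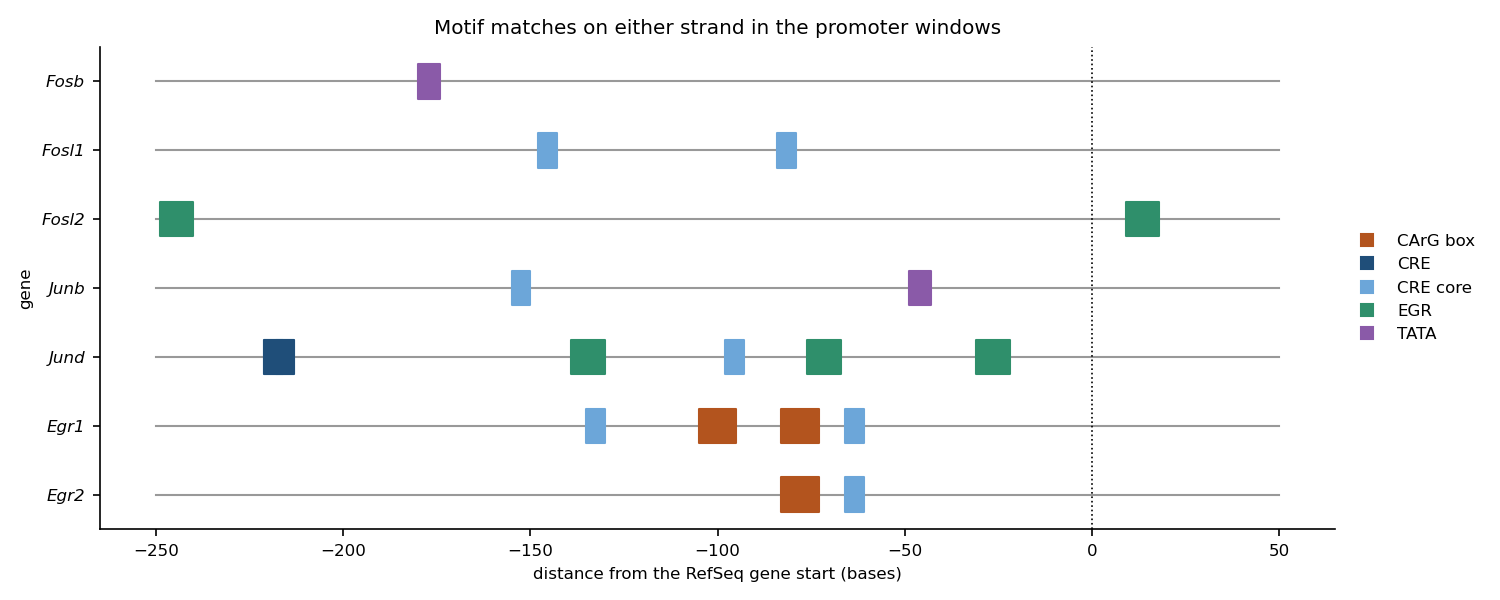
Motif matches on either strand in the promoter windows of the 7 genes with a RefSeq entry, with the distance from the gene start in bases on the x axis and 1 line a gene. Egr1 and Egr2 carry a CArG box at -83 to -74 and a CRE core at -66 to -62.

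Library totals ran from 33505706 to 42684206 estimated counts, and the 10 genes had from 9 to 12360 counts in a library. Levels are given as CPM, counts scaled to library size after TMM normalization over all 10 libraries. Transcript lengths were not used here, so levels are compared between groups for 1 gene and never between genes. Markers of the labelled cells were checked first. Of 9 OL markers, 8 were called higher in OL miR-ctl than in OPC anti-miR-ctl, and all 4 measured OPC markers were called lower, as edgeR calls at an adjusted p under 0.05. Summed OL markers lay between 15556 and 34093 CPM in the 6 OL libraries and between 1089 and 1320 CPM in the 4 OPC libraries. The OL libraries also held astrocyte markers, whose sum over 7 genes was 5502 to 13420 CPM, against 292 to 573 CPM in the OPC libraries. Gfap, the intermediate filament of astrocytes, was at 4799 and 4179 CPM in OL miR-ctl and at 8.23 and 7.81 CPM in OPC anti-miR-ctl. Microglia markers were measured in every library, with sums over 10 genes of 341 to 955 CPM in OLs and 850 to 1045 CPM in OPCs, and none of these genes was at 0. Fibroblast or mural markers summed to 20.2 to 58.1 CPM in OLs and 1.54 to 3.05 CPM in OPCs, endothelial markers to 5.96 to 20.7 CPM and 0.987 to 1.43 CPM, and neuron markers to 106 to 136 CPM and 74.6 to 119 CPM. In bulk RNA, more cells of a type and more RNA per cell cannot be told apart, and the part of other cell types in the results below was not tested.

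**Figure D2:**
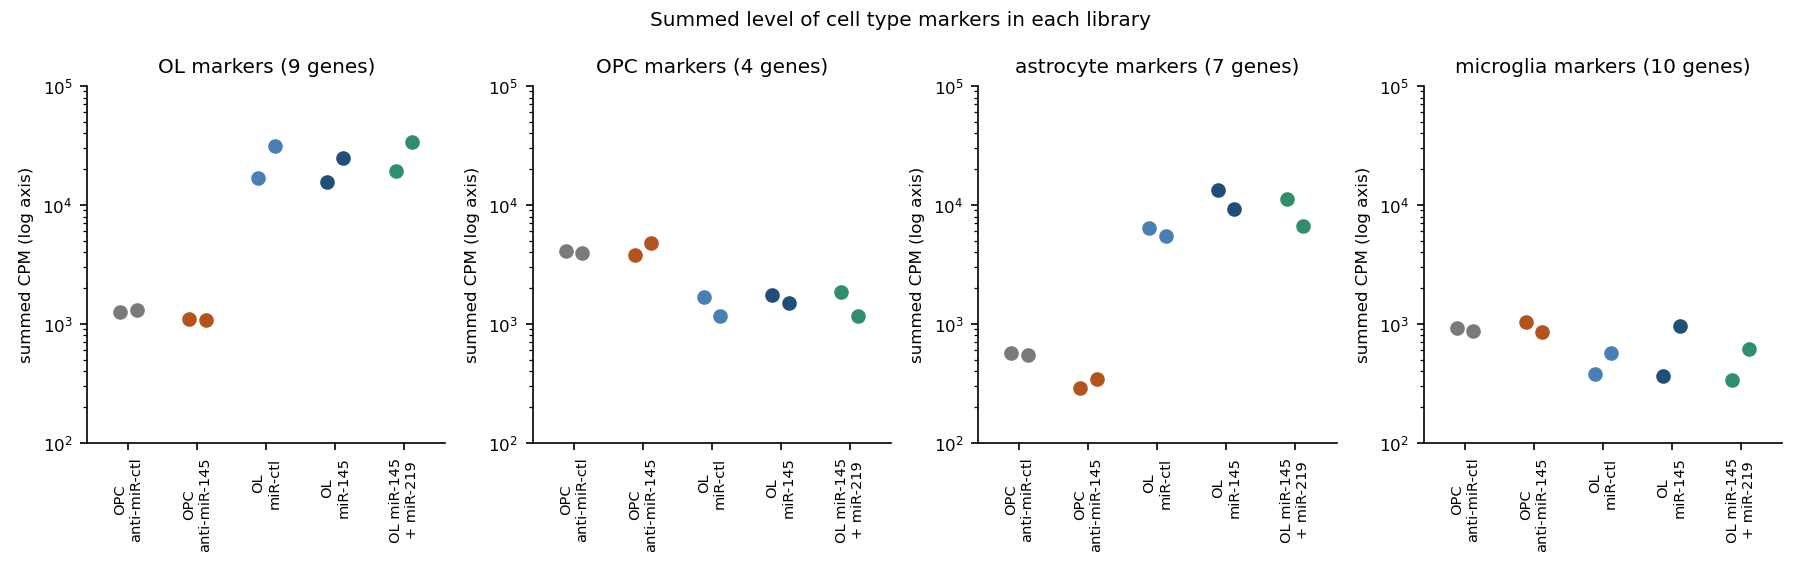
Summed CPM of the OL, OPC, astrocyte and microglia markers in each library, on a log axis, with 1 point a library and the 5 groups along the x axis. The astrocyte sum is 5502 to 13420 CPM in OL libraries and 292 to 573 CPM in OPC libraries.

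Inhibiting miR-145-5p in OPCs was the comparison in which the inhibitor and its own control met in the same cells and medium. Fos rose 3.00-fold, Jund 2.00-fold and Jun 1.46-fold with anti-miR-145, and Egr1 fell to a level 1.78-fold lower. The other 6 genes did not pass the test. Thus 3 of 10 genes were called higher and 1 of 10 lower, where 12.1% of all 15496 genes tested were called higher and 16.0% lower. The median log2 fold change was 0.16 over the 10 genes and 0.0045 over all genes tested. A call is an edgeR quasi-likelihood p under 0.05 once adjusted, by Benjamini-Hochberg, for all genes tested.

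Among the Fos family, Fos, the AP-1 subunit induced most broadly by growth factors, stood at 31.2 and 31.3 CPM in the anti-miR-ctl libraries and at 95.3 and 92.2 CPM in the anti-miR-145 libraries. The groups were far apart beside the spread within each, and the log2 fold change was 1.60 ± 0.08 (SE, n = 2 against 2, edgeR adjusted p = 6.4e-05). Fosl1 encodes Fra-1, a Fos-related subunit that lacks the strong activation domain of Fos. It was at 8.89 and 8.85 CPM with anti-miR-ctl and at 12.8 and 10.0 CPM with anti-miR-145, without overlap of the groups, but was not called (log2 fold change 0.38 ± 0.15, edgeR adjusted p = 0.103). Fosl2, which encodes Fra-2, was at 3.72 and 3.78 CPM with anti-miR-ctl and at 2.46 and 2.75 CPM with anti-miR-145. It was not called either (-0.51 ± 0.18, edgeR adjusted p = 0.0704). Fosb, best known from neurons, was under 1 CPM in every library, with 22 to 40 counts in the OPC libraries, and its groups overlapped.

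Among the Jun family, Jun, the partner of Fos in the classical AP-1 dimer, was at 104 and 99.2 CPM in the anti-miR-ctl libraries and at 155 and 142 CPM in the anti-miR-145 libraries. The log2 fold change was 0.56 ± 0.09 (edgeR adjusted p = 0.00385). Jund, a Jun protein that can restrain proliferation, was at 79.0 and 69.2 CPM with anti-miR-ctl and at 153 and 143 CPM with anti-miR-145. Its log2 fold change was 1.02 ± 0.10 (edgeR adjusted p = 0.000412), and every anti-miR-145 value was above every value of the other 4 groups. Junb, which often opposes Jun, was at 49.0 and 49.4 CPM with anti-miR-ctl and at 57.1 and 48.8 CPM with anti-miR-145. Its groups overlapped (0.12 ± 0.11, 95% interval -0.13 to 0.37).

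Among the Egr family, Egr1, a sensor of growth factor signalling through ERK, was at 141 and 139 CPM with anti-miR-ctl and at 86.7 and 70.7 CPM with anti-miR-145. The log2 fold change was -0.82 ± 0.12 (edgeR adjusted p = 0.0025). Egr2 was at 18.2 and 19.6 CPM with anti-miR-ctl and at 15.1 and 11.3 CPM with anti-miR-145. It lay just outside the threshold (-0.50 ± 0.16, edgeR adjusted p = 0.0515), and it was called lower with DESeq2 (adjusted p = 0.0291) and with the replicate block (adjusted p = 0.025). Egr3, an Egr factor downstream of calcineurin signalling in lymphocytes, was at 4.68 and 3.43 CPM with anti-miR-ctl and at 4.25 and 3.72 CPM with anti-miR-145, and its values overlapped (-0.01 ± 0.20, 95% interval -0.49 to 0.46). Astrocyte markers summed to 292 and 346 CPM in the anti-miR-145 libraries and 573 and 550 CPM in the controls, with 1 of 7 called higher and 3 lower. The higher marker was Gfap (2.53 on the log2 scale), and the lower ones were Slc1a2 (-1.22), Slc1a3 (-1.06) and S100b (-0.85). Of 10 microglia markers, 6 were called higher and 3 lower, with overlapping sums of 1045 and 850 CPM and of 923 and 865 CPM. Of 5 neuron markers measured, 3 were called higher and none lower (Nefl 1.97, Tubb3 1.18 and Rbfox3 0.88 on the log2 scale). Syt1 (-0.29) and Stmn2 (-0.34) lay lower without overlap and were not called. The neuron marker sums were 119 and 114 CPM against 77.3 and 74.6 CPM. Of 9 OL markers, 1 was called higher and 2 lower, and of 4 OPC markers 1 higher and 1 lower. The part of these cells in the differences was not tested.

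**Figure D3:**
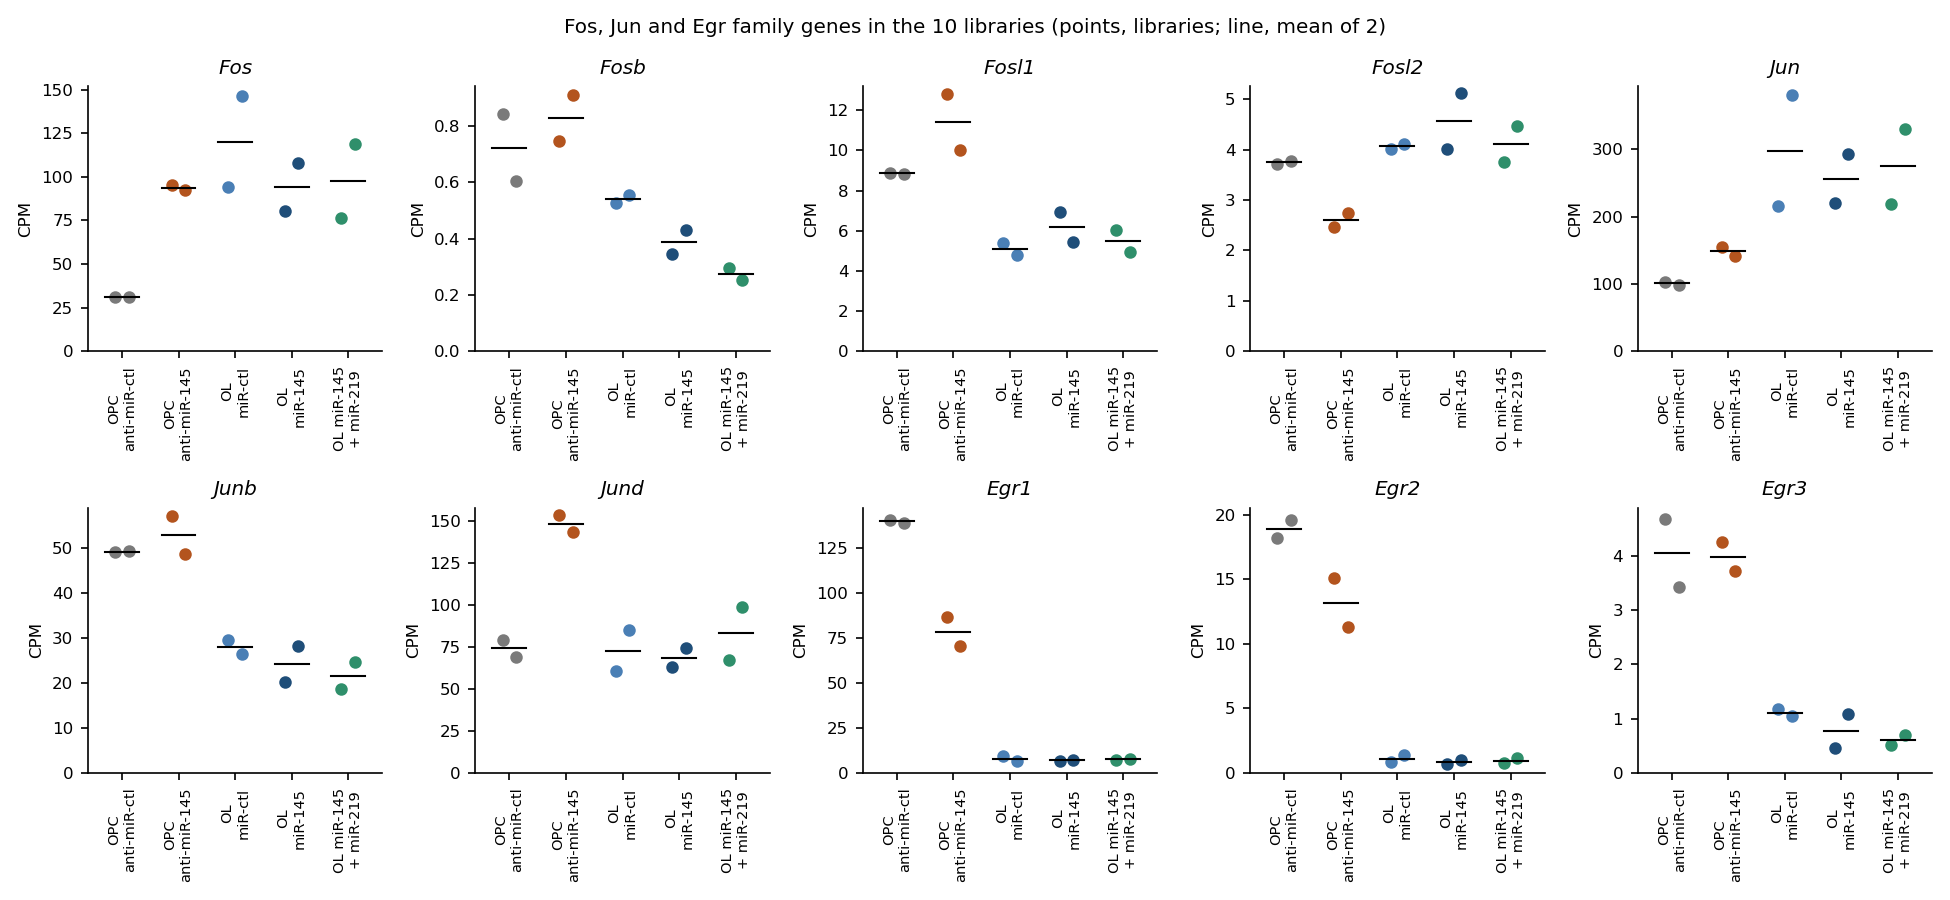
CPM of the 10 genes in every library, with the 5 groups along the x axis, 1 point a library and a line at the mean of 2 libraries. Each panel has its own y axis from 0. Fos is at 31.2 and 31.3 CPM in OPC anti-miR-ctl and at 76.6 CPM or more elsewhere, and Egr1 is at 70.7 CPM or more in OPCs and at 9.22 CPM or less in OLs.

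The comparison of OL miR-ctl with OPC anti-miR-ctl asks how the genes differ between the control cells of the 2 stages. Medium, time after transfection and the kind of control oligonucleotide differed along with the stage and cannot be told apart from it. All 3 Egr genes were lower in OLs, Egr1 17.9-fold, Egr2 17.1-fold and Egr3 3.64-fold, while Fos and Jun were 3.85-fold and 2.93-fold higher. Junb and Fosl1 were 1.76-fold and 1.74-fold lower in OLs. Of the 10 genes, 2 were called higher and 5 lower, where 28.8% of all 15721 genes tested were called higher and 28.7% lower. The median log2 fold change was -0.61 over the 10 genes and 0.0072 over all genes tested.

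Egr1 was at 9.22 and 6.48 CPM in the OL miR-ctl libraries, against the 141 and 139 CPM of the control OPCs given above. The log2 fold change was -4.16 ± 0.18 (SE, n = 2 against 2, edgeR adjusted p = 7.92e-05). Egr2 was at 0.829 and 1.38 CPM in OL miR-ctl, with 33 and 45 counts, and at 778 and 716 counts in the control OPCs (-4.12 ± 0.25, edgeR adjusted p = 0.000189). Egr3 was at 1.18 and 1.04 CPM (-1.86 ± 0.26, edgeR adjusted p = 0.00274). These 3 genes separated the stages in all groups. Jun, Junb, Fosl1 and Fosb did so too, Jun with OLs higher and the others with OPCs higher. Fosb did so narrowly, at 0.603 CPM or more in OPCs and 0.553 CPM or less in OLs. The share of all genes that separated the stages was not computed. The lowest OPC library was 7.67-fold above the highest OL library for Egr1, 8.18-fold for Egr2 and 2.90-fold for Egr3.

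Fos was at 94.0 and 146 CPM in OL miR-ctl (1.94 ± 0.22 against control OPCs, edgeR adjusted p = 0.00139). It did not separate the stages once the inhibitor group was included, since its values in OPC anti-miR-145, 95.3 and 92.2 CPM, lay inside the OL range of 76.6 to 146 CPM. Jun was at 216 and 380 CPM in OL miR-ctl (1.55 ± 0.27, edgeR adjusted p = 0.00601). The lowest OL library was 1.39-fold above the highest OPC library for Jun. Without replicate 2 of OPC anti-miR-ctl, Jun was no longer called (adjusted p = 0.0533), and Fosl1 was not called without either library of that group (adjusted p = 0.0698 and 0.0702). Junb was at 29.6 and 26.4 CPM in OL miR-ctl (-0.82 ± 0.09, edgeR adjusted p = 0.00144), and Fosl1 was at 5.40 and 4.82 CPM (-0.80 ± 0.14, edgeR adjusted p = 0.00684). For both genes every OPC library was above every OL library.

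Jund was at 60.6 and 84.9 CPM in OL miR-ctl, a range that held both control OPC values, and its log2 fold change was -0.03 (95% interval -0.48 to 0.42). Its direction turned with the OL library left out. It was called 0.20 higher without OL miR-ctl replicate 1 (adjusted p = 0.0479) and called lower, -0.29, without replicate 2 (adjusted p = 0.0124). Fosl2 was at 4.02 and 4.12 CPM (0.11, 95% interval -0.32 to 0.54), and Fosb at 0.528 and 0.553 CPM (-0.43, 95% interval -1.32 to 0.46). In this comparison 6 of 7 astrocyte markers were called higher and none lower, and 4 of 10 microglia markers were called lower and none higher. C1qa, C1qb, C1qc, Cx3cr1 and P2ry12, not called, lay above control OPCs without overlap, at 0.19 to 0.55 on the log2 scale. Cd68, also not called, overlapped at -0.23, and the median of the 10 microglia markers was -0.02. The part of these cells in the differences was not tested.

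This comparison shares its OPC anti-miR-ctl libraries with the inhibitor comparison, so the values stand side by side without a measure of likeness. Fos had log2 fold changes of 1.60 with the inhibitor and 1.94 in OLs, Jun had 0.56 and 1.55, and Egr1 had -0.82 and -4.16. Jund had 1.02 with the inhibitor and -0.03 in OLs. In the same order Fosl1 had 0.38 and -0.80, Junb 0.12 and -0.82, Fosb 0.20 and -0.43, and Fosl2 -0.51 and 0.11. Egr2 had -0.50 and -4.12, and Egr3 had -0.01 and -1.86.

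**Figure D4:**
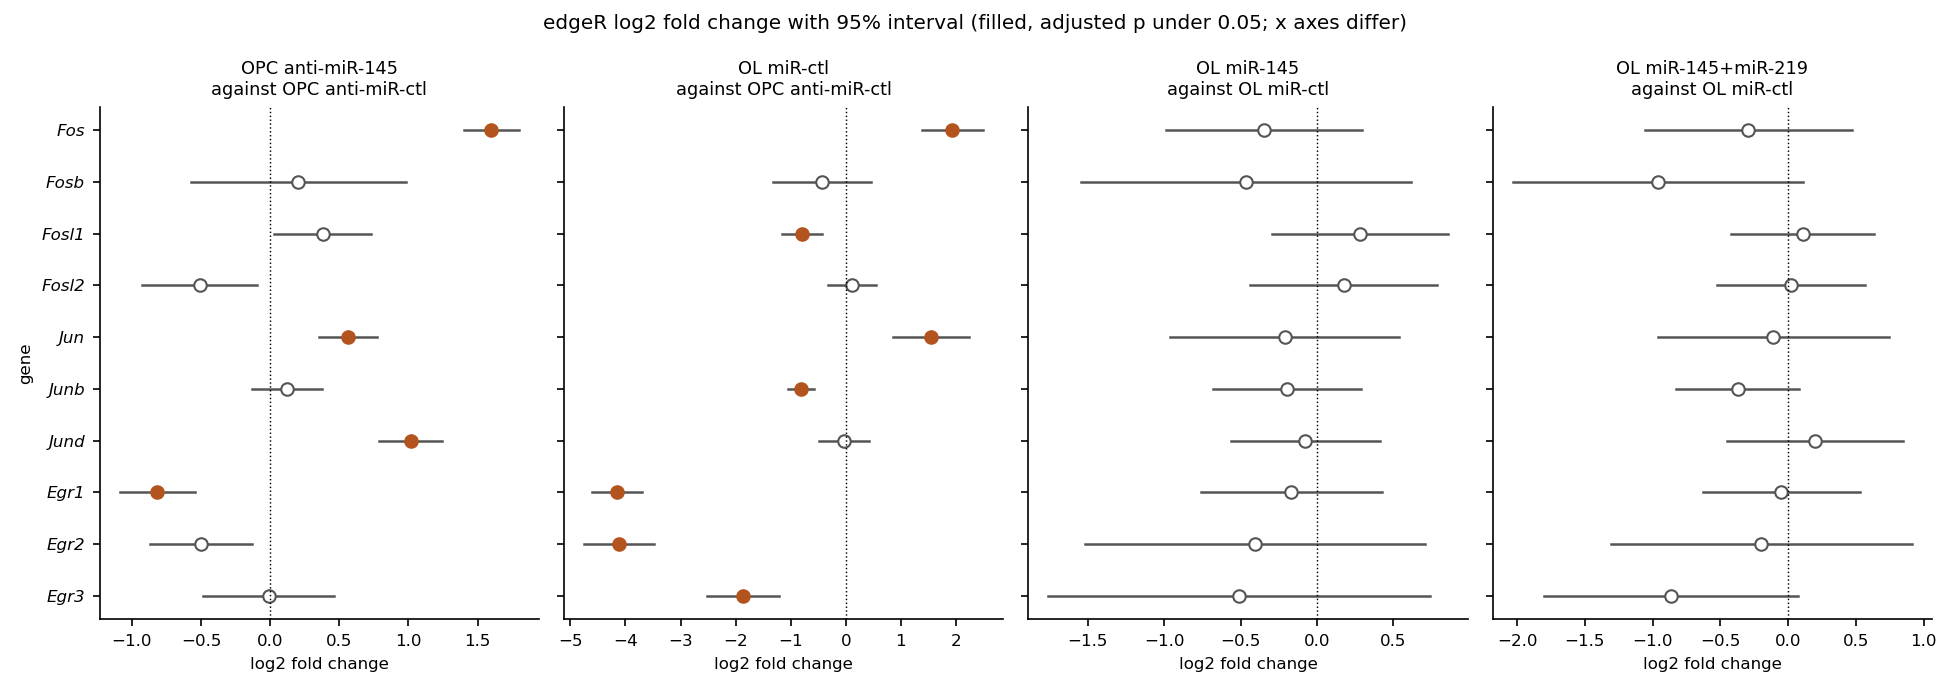
edgeR log2 fold changes of the 10 genes with 95% intervals in 4 comparisons, 1 row a gene, with filled points at an adjusted p under 0.05. The x axes differ. There are 4 filled points for the inhibitor in OPCs, 7 for OL miR-ctl against OPC anti-miR-ctl and 0 for the mimics in OLs.

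With the miR-145 mimic in OLs, 0 of the 10 genes were called by edgeR, 0 had an unadjusted p under 0.05 and 0 were called by DESeq2. Over all 15461 genes tested, edgeR called 0%, 2067 genes had an unadjusted p under 0.05, and DESeq2 called 649. With the replicate number as a block, which no label says marks a shared culture, edgeR called 2272 of all genes and 0 of the 10, with Fos at -0.33 (edgeR adjusted p = 0.059). Fos was at 80.3 and 108 CPM with miR-145 and at 94.0 and 146 CPM with miR-ctl. Its log2 fold change without the block was -0.35, with a 95% interval of -0.99 to 0.30. Jun was at 219 and 292 CPM with miR-145, inside the miR-ctl range (-0.21, 95% interval -0.96 to 0.54). Egr1 was at 6.87 and 7.07 CPM with miR-145, between the 2 miR-ctl values (-0.17, 95% interval -0.76 to 0.42). Jund was at 63.0 and 74.3 CPM (-0.08, 95% interval -0.57 to 0.41). The groups did not overlap for Fosl1, at 6.95 and 5.43 CPM and above miR-ctl, and for Fosb, at 0.346 and 0.429 CPM and below it. These are 2 of 10 genes, where 47.3% of all genes tested did not overlap. The widest intervals were those of Egr3 (-1.76 to 0.74), Fosb (-1.54 to 0.61) and Egr2 (-1.52 to 0.70), which had 12 to 47 counts a library.

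With miR-145+miR-219 in OLs, 0 of the 10 genes were called by edgeR, with unadjusted p under 0.05 or by DESeq2. Over all 15436 genes edgeR called 0%, 956 had an unadjusted p under 0.05, and DESeq2 called 106. Fosb, at 0.296 and 0.253 CPM, Junb, at 18.7 and 24.6 CPM, and Egr3, at 0.519 and 0.702 CPM, lay below miR-ctl without overlap, 3 of 10 genes against 36.7% of all genes. Their log2 fold changes were -0.96, -0.37 and -0.86, each with an interval that held 0. Fos was at 76.6 and 119 CPM (-0.29, 95% interval -1.06 to 0.47) and Jun at 219 and 330 CPM (-0.11, 95% interval -0.96 to 0.75). With the replicate block edgeR called 132 of all genes and 0 of the 10, with Fos at -0.29 (edgeR adjusted p = 0.181), lower in both same-numbered pairs of libraries. Between miR-145+miR-219 and miR-145 alone, 0 of 10 genes were called by edgeR, with unadjusted p under 0.05 or by DESeq2. Over all 15501 genes edgeR called 0%, 228 had an unadjusted p under 0.05, and DESeq2 called 9, while edgeR with the replicate block called 184 of all genes and 0 of the 10. In that comparison 2 of 10 genes did not overlap, Egr1 higher and Fosb lower, against 24.8% of all genes. Fosb thus stood in the same order in all OL libraries, highest in miR-ctl and lowest in miR-145+miR-219, on 9 to 21 counts a library.

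The spread within OL groups was larger than within OPC groups for Fos and Jun. Over all genes with enough counts, too, the 2 libraries of a group differed more in OLs. A chi-square between them, per degree of freedom, was 63.8 to 76.0 in OL groups. It was 29.5 in OPC anti-miR-145 and 11.1 in OPC anti-miR-ctl. The 2 libraries of an OL group differed 1.34-fold to 1.56-fold for Fos and 1.33-fold to 1.76-fold for Jun. Between these libraries Fosb, Junb, Egr1 and Egr3 went with Fos in some OL groups and against it in others. In each OL group the library with more Fos also had more Jun, Jund, Fosl2 and Egr2, and less Fosl1. That library had the higher OL marker sum as well, 31037 against 16889 CPM in OL miR-ctl, 24879 against 15556 CPM with miR-145 and 34093 against 19411 CPM with miR-145+miR-219. It also had the higher microglia marker sum, 569 against 379 CPM, 955 against 366 CPM and 617 against 341 CPM in the same order. Its astrocyte marker sum was the lower, 5502 against 6344 CPM, 9209 against 13420 CPM and 6661 against 11180 CPM, and so was its OPC marker sum, 1155 against 1675 CPM, 1510 against 1760 CPM and 1175 against 1869 CPM. The part of these cells in the spread was not tested. In each OL group the library with more Fos was replicate 2. Deviations of same-numbered libraries correlated at 0.396 to 0.622 between OL groups, so the groups may not show this pattern independently. The 2 libraries of OPC anti-miR-ctl were at 31.2 and 31.3 CPM for Fos. By the chi-square above this pair was also the most alike over all genes. Every comparison with OPC anti-miR-ctl rests on it.

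The effect of the mimic in OLs and that of the inhibitor in OPCs were compared by an interaction contrast over 8 libraries, since a call in OPCs and none in OLs does not show a difference. The agents, stages and times differ, so the contrast compares 2 effects and not 1 treatment in 2 stages. A mimic adds to the miRNA that an inhibitor blocks, so opposite effects of the 2 agents give a difference by themselves. A call here thus does not show that the stages differ. Fos differed by -1.93 ± 0.30 on the log2 scale (SE, edgeR adjusted p = 0.0104) and Jund by -1.08 ± 0.24 (edgeR adjusted p = 0.0313). Thus 2 of 10 genes were called, against 10.2% of all 16217 genes tested. Jun differed by -0.76 (edgeR adjusted p = 0.212) and Egr1 by 0.66 (edgeR adjusted p = 0.123) and were not called. Without replicate 1 of OPC anti-miR-ctl the adjusted p was 0.056 for Fos and 0.0886 for Jund, and without replicate 2 it was 0.0532 and 0.117, so neither call held. Jund was also lost without miR-145 replicate 1 (adjusted p = 0.0616) and without either anti-miR-145 library (adjusted p = 0.104 and 0.0697).

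Other immediate early genes were read from a list of 28. In the inhibitor comparison 5 were called higher, 8 lower and 15 were not called, with a median log2 fold change of -0.09. The 4 higher genes of smallest p were Rgs2, a brake on G protein signalling, at 31.6 and 29.9 CPM against 13.3 and 14.1 CPM with anti-miR-ctl, Gadd45g, a stress-induced growth arrest gene, at 261 and 192 CPM against 73.1 and 78.7 CPM, Myc, a driver of growth and proliferation, at 144 and 136 CPM against 87.9 and 90.7 CPM, and Npas4, a neuronal activity factor, on 38 and 20 counts against 7 and 3. The 4 lower genes of smallest p were Arc, a neuronal activity gene, with a log2 fold change of -1.54, Nr4a1, an orphan nuclear receptor, with -0.77, Dusp1, a MAP kinase phosphatase, with -1.06, and Gadd45b with -0.85. Arc and Nr4a1 moved the same way as Egr1, and Rgs2 and Gadd45g the same way as Fos. Since Fos rose and Egr1 fell, any called gene must match either Fos or Egr1, so this shows no link between them.

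In OL miR-ctl against OPC anti-miR-ctl, 6 of the 27 list genes tested were called higher and 13 lower, with a median of -0.42. The 4 higher genes of smallest p were Gadd45b, at 148 and 219 CPM in OLs and 14.7 and 13.9 CPM in OPCs, Atf3, a stress-induced leucine zipper factor, at 72.5 and 162 CPM and 10.7 and 9.87 CPM, and Ccn1 and Ccn2, matricellular genes with log2 fold changes of 2.54 and 2.87. Arc fell by 3.94, Klf10 by 1.56, Ier3 by 1.83 and Nr4a1 by 2.65 on the log2 scale. Nr4a1 stood at 20.1 and 13.1 CPM in OLs and at 113 and 95.9 CPM in OPCs. In the OL mimic comparisons 0 list genes were called by edgeR, with 3, 3 and 0 at an unadjusted p under 0.05. Rgs2 had the smallest p with miR-145 (-0.56, edgeR adjusted p = 0.22) and with miR-145+miR-219 (-0.74, edgeR adjusted p = 0.80), and Klf10 was next in both (-0.50 and -0.30). Between the mimic groups the smallest p were those of Ccn1 (-0.44) and Klf10 (0.19).

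Partners of the AP-1 proteins and MAF factors made a list of 10. With anti-miR-145, 0 were called higher and 2 lower. Batf, an AP-1 family factor of immune cells, fell from 14.5 and 12.9 CPM to 2.01 and 1.09 CPM, and Maf, a factor also used in macrophages, had a log2 fold change of -0.97. In OL miR-ctl against OPC anti-miR-ctl, 3 were called higher, Mafk, Atf7 and Atf4, and 4 lower, led by Batf (-3.69) and Jdp2 (-0.71). In the OL mimic comparisons 0 were called by edgeR. The smallest p were those of Batf (-1.04) and Atf4 (-0.33) with miR-145, of Batf (-1.25) and Maff (-0.65) with miR-145+miR-219, and of Batf3 (-0.59) and Atf2 (0.13) between the mimic groups. Microglia markers that fell with anti-miR-145 were Aif1, Itgam and Csf1r, while C1qa, C1qb, C1qc, Cx3cr1, P2ry12 and Cd68 rose.

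Of the upstream factors, which are the ERK, JNK and p38 kinases with SRF, CREB and ternary complex factors, 15 of 16 were found. With anti-miR-145 Mapk10, which encodes JNK3, rose from 40.9 and 36.1 CPM to 66.4 and 75.0 CPM. Map2k2, which encodes the ERK kinase MEK2, rose from 102 and 103 CPM to 152 and 128 CPM. None of these factors was called lower. Srf, whose motif stands in the Egr1 and Egr2 stretches, was at 48.5 and 47.8 CPM with anti-miR-ctl, 54.7 and 51.3 CPM with anti-miR-145 and 47.5 and 44.0 CPM in OL miR-ctl. It was called in neither of these comparisons. In OL miR-ctl against OPC anti-miR-ctl, Mapk3 (1.18) and Mapk9 (0.46) were higher, and Mapk10 (-1.62), Mapk14 (-0.49), Mapk8 (-0.52) and Elk1 (-0.50) were lower. In the OL mimic comparisons 0 were called by edgeR. The smallest p were those of Elk3 (0.34) and Mapk10 (0.38) with miR-145, of Mapk10 (0.37) and Mapk9 (-0.09) with miR-145+miR-219, and of Elk3 (-0.32) and Elk1 (-0.18) between the mimic groups.

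Nab1 and Nab2 encode co-repressors that bind Egr proteins, and Nab2 is itself a target of Egr1. Nab2 was at 103 and 104 CPM in OPC anti-miR-ctl, at 97.8 and 74.6 CPM in OPC anti-miR-145 and at 6.08 and 4.48 CPM in OL miR-ctl. Its log2 fold change in OL miR-ctl against control OPCs was -4.29 (edgeR adjusted p = 6.08e-05), beside -4.16 for Egr1 and -4.12 for Egr2. Nab1 was called lower with the inhibitor (-0.47) and in OLs (-0.39). With the mimics neither was called, at -0.11 and -0.11 for Nab1 and 0.04 and 0.21 for Nab2 against miR-ctl, and at -0.01 and 0.16 between the mimic groups.

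AP-1 and Egr target genes were a list of 16, of which 14 were found. With anti-miR-145, 3 were called higher and 7 lower, with a median of -0.07. Timp1, an inhibitor of matrix metalloproteinases, rose from 19.3 and 19.8 CPM to 98.9 and 82.3 CPM. Plau, which encodes the protease urokinase, rose by 1.87 and its receptor Plaur by 1.09 on the log2 scale. Mmp9, a gelatinase, fell from 15.6 and 14.7 CPM to 0.571 and 0.590 CPM, Ccl2, a chemokine, from 13.7 and 17.8 CPM to 2.23 and 2.36 CPM, and Spp1, osteopontin, from 101 and 93.9 CPM to 17.9 and 11.9 CPM. Il6, an inflammatory cytokine, had 25 and 14 counts with anti-miR-ctl and 0 and 1 with anti-miR-145. Mmp9, Spp1, Ccl2 and Il6 are also made by microglia and macrophages, whose markers moved in both directions as given above. In OL miR-ctl against OPC anti-miR-ctl, 5 of 13 target genes tested were higher, led by Pdgfb (5.69), Timp1 (1.64), Plau (2.93) and Cd44 (1.21), and 6 were lower, led by Ccnd1 (-3.88), Tgfb1 (-2.64), Mmp9 (-3.73) and Spp1 (-1.91). Ccnd1, cyclin D1, was at 3276 and 3360 CPM in control OPCs and at 253 and 200 CPM in OL miR-ctl. With the miR-145 mimic 0 of 11 target genes tested were called by edgeR, while 6 had an unadjusted p under 0.05. Mmp9 and Ccl2 had the smallest p with either mimic treatment. Mmp9 had 62 and 22 counts with miR-ctl, 2 and 1 with miR-145 and 0 and 0 with miR-145+miR-219 (edgeR adjusted p = 0.158 and 0.789). Ccl2 was at 4.04 and 7.78 CPM with miR-145, at 2.79 and 3.00 CPM with miR-145+miR-219 and at 26.0 and 13.7 CPM with miR-ctl, without overlap and without a call (edgeR adjusted p = 0.206 and 0.777). Between the mimic groups the smallest p were those of Timp1 (-0.41) and Ccl2 (-1.04), neither called.

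**Figure D5:**
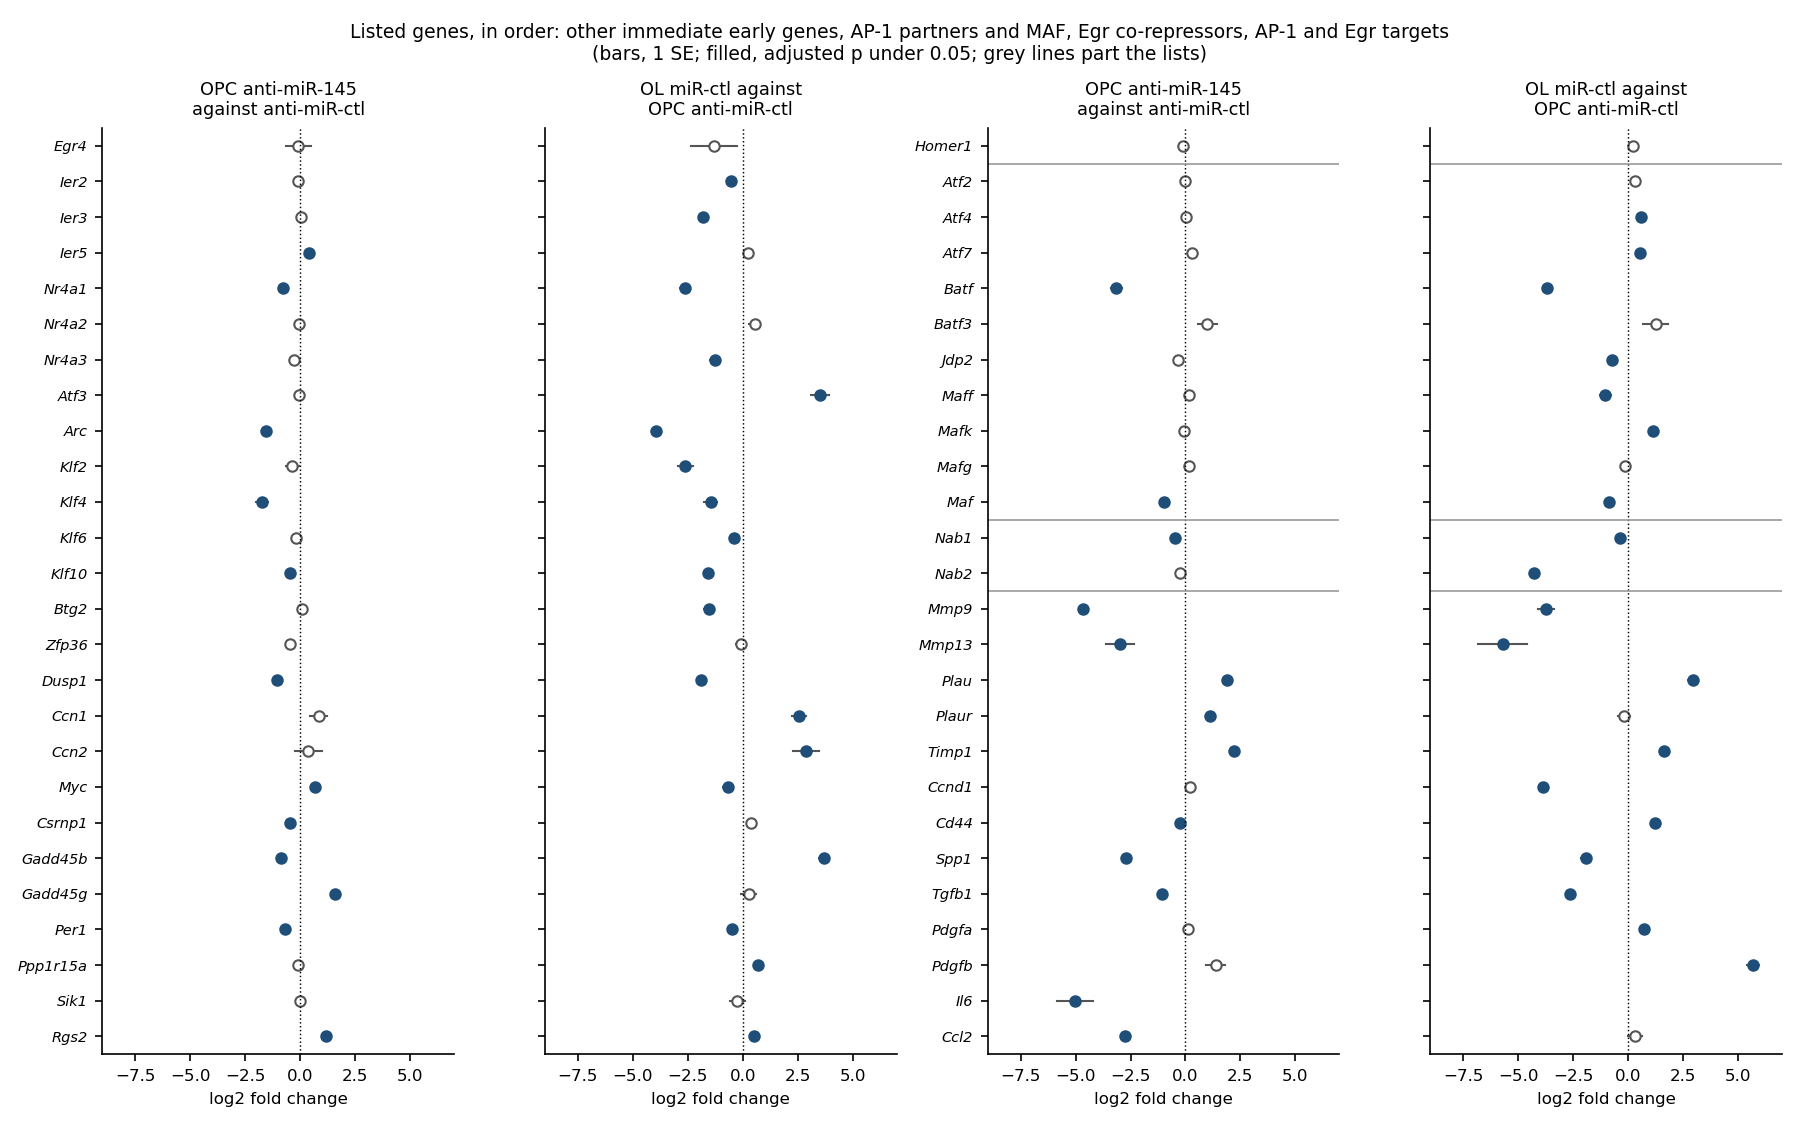
edgeR log2 fold changes of the listed genes, with bars of 1 SE and filled points at an adjusted p under 0.05, for the inhibitor in OPCs and for OL miR-ctl against OPC anti-miR-ctl, which share the OPC anti-miR-ctl libraries. Il6 is not drawn in the second comparison because it is at 0 in OL miR-ctl. Nab2 is at -4.29 there.

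The genes most like each member over the 10 libraries were found by Pearson correlation of log2(CPM + 1) among 10784 or 10785 genes with a symbol and a mean of at least 5 CPM. This is a description of libraries that form an OPC and an OL cluster, and r of these genes within a cluster was not computed. For Egr1 the nearest genes were Rcc1, Slfn4 and Cnot9 (r of 0.999, 0.998 and 0.998), and for Egr2 they were Ifi27l2b, Sart3 and Ezh2 (0.995 each). For Fos they were Plod3, Zfyve1 and Hs6st1 (0.981, 0.975 and 0.975), for Jun Rmc1, LOC100911625 and Sik3 (0.989, 0.989 and 0.988), and for Jund Cd276, F8a1 and Ankrd13b (0.972, 0.964 and 0.963). None of the 7 members at that level was among the 3 nearest genes of another member. Egr1 and Egr2 still had an r of 0.991 with each other over the 10 libraries, and of -0.296 over the 6 OL libraries. Fosb, Fosl2 and Egr3 had means under 5 CPM and were not among the candidate genes, so they could not be found as nearest genes. Egr3 had an r of 0.982 with Junb, as high as that of C3, the nearest gene found for Junb. Between members r could differ within a cluster. For Fos and Egr2 it was -0.654 over the 10 libraries and 0.973 over the 6 OL libraries.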

How the data were processed

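The authors assigned reads of stranded mRNA libraries to GENCODE rat transcripts (Rnor6.0) with Salmon 0.12.0, summed them per gene with tximport and deposited estimated counts, not normalized, for 23487 genes in 10 libraries. Estimated counts make reads shared by similar transcripts uncertain, and they were rounded to whole numbers here. In each library 16.0% to 17.5% of the genes had a count that was not whole. A second deposited table, which pairs gene IDs with symbols, also holds the fold changes and p-values of the authors' own miR-145 comparison. Only its symbols were used. Groups came from sample titles.

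Each comparison was fitted on its own 4 libraries (the interaction on 8) with edgeR 4.0.16 in R 4.3.3 (TMM, estimateDisp, glmQLFit, glmQLFTest), after dropping genes without 5 or more counts in 2 or more libraries. Calls used p-values adjusted by Benjamini-Hochberg over all genes tested, with 0.05 as the threshold. The SE is the log2 fold change divided by the square root of F, and intervals are 95%. DESeq2 1.42.0 and other filters, scalings and fits were alternatives. The fits were tested on simulated data. With 2 libraries a group, their number limits the precision, and for Fosb, Egr2 and Egr3 in OLs the low counts do as well.

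All 10 members are named in every comparison. From each list the called genes of smallest p are named, at most 4 in each direction, or where none was called up to 2 of smallest p. Some genes are named outside this rule: Srf, and the astrocyte, microglia and neuron markers named above, chosen after their values were seen. The members and lists were chosen with earlier results of these data known. Some genes of the lists are not reported here and were left out of the list counts and medians after their values were seen. Promoter and miRNA sequences are RefSeq's (GRCr8), and plots were drawn with matplotlib 3.10.9.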

Additional observations from a re-analysis of the deposited data

How the results depend on the processing

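With 2 libraries a group, leaving out 1 leaves a lone sample assumed to vary like the others. Of the 370 log2 fold changes under the other settings, 361 kept their direction and their side of the threshold, and of the 280 with 1 library left out, 223 did. All 28 members' values that turned direction in the 3 OL mimic comparisons with 1 library left out were uncalled. The number of members called was 0 in the 3 OL mimic comparisons under every alternative run. The cause of the changes below was not tested.

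For anti-miR-145 against anti-miR-ctl in OPCs, 4 to 7 members were called with 1 library left out. DESeq2, no filter, a minimum of 10 counts and the replicate block each called 5, adding Egr2, DESeq2 size factors called 4, and a single fit of all 10 libraries called 3, losing Jun (adjusted p = 0.203). Egr3 turned to 0.0041 in that single fit and to 0.0025 with the replicate block. For OL miR-ctl against OPC anti-miR-ctl, 7 were called under every alternative with all libraries kept and 5 to 8 with 1 left out. For the interaction, 1 was called in the fit of all 10 libraries and 0 to 4 with 1 library left out.

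Replicate numbers are shared by the groups, but no label says that they mark a shared culture. Deviations of same-numbered libraries correlated at 0.396 to 0.622 between OL groups and at -0.141 between the OPC groups. With the replicate block edgeR called 2272, 132 and 184 of all genes in the 3 OL mimic comparisons, in the order of the report, and 3963 in the OPC inhibitor comparison, with 0, 0, 0 and 5 members among them. Crossing the numbers of the OPC libraries, an alternative chosen after seeing the data, gave 5536 calls and 5 members.

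With 1 library left out, values turned direction over these log2 ranges. For miR-145 against miR-ctl these were Fos -0.63 to 0.0022, Fosl2 -0.020 to 0.35, Jun -0.56 to 0.25, Junb -0.46 to 0.027, Jund -0.30 to 0.18 and Egr1 -0.41 to 0.11. For miR-145+miR-219 against miR-ctl they were Fos -0.66 to 0.055, Fosl1 -0.032 to 0.23, Fosl2 -0.12 to 0.14, Jun -0.46 to 0.35, Jund -0.12 to 0.45, Egr1 -0.28 to 0.24 and Egr2 -0.53 to 0.20. For miR-145+miR-219 against miR-145 they were Fos -0.31 to 0.33, Fosl2 -0.34 to 0.037, Jun -0.24 to 0.36, Junb -0.41 to 0.092, Jund -0.048 to 0.52, Egr2 -0.13 to 0.53 and Egr3 -0.85 to 0.40. For the OPC inhibitor they were Fosb -0.031 to 0.44, Junb -0.010 to 0.25 and Egr3 -0.24 to 0.20. For OL miR-ctl against OPC anti-miR-ctl Jund ran from -0.29 to 0.20, and for the interaction Fosl1 ran from -0.28 to 0.10 and Egr2 from -0.21 to 0.53. Without TMM, 40 of 50 group means moved by less than 1 SD, and the largest move was 6.90%.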
